A study of Mus musculus with 6 samples.

Results

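The genes described here are the matrix metalloproteinases (MMP), the ADAMTS proteases, the tissue inhibitors of metalloproteinases (TIMP) and the lysyl oxidases of mouse diaphragm, the main muscle of breathing. They were chosen by symbol alone (Mmp, Adamts, Timp1 to Timp4, Lox and Loxl1 to Loxl4), which gave 51 of the 55491 genes in the table: 23 MMP, 19 ADAMTS, 4 TIMP and 5 lysyl oxidase genes. The series holds 3 diaphragms of C57Bl/6J wild-type mice and 3 of Thbs1-/- mice of the strain B6.129S2-Thbs1tm1Hyn/J, a germline targeted allele of the gene for thrombospondin-1, a secreted matrix glycoprotein. Mice of both genotypes ate a diet with 45% of its energy from lipid over 6 months, so no group on a normal diet enters. Nothing in the sources used here gives age, sex, littermate status or any pooling of animals. Libraries were made with Lexogen QuantSeq, in which priming starts at the poly(A) tail and each read comes from the end of a transcript.

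The 6 value columns carry library codes, and 0 of the 6 codes occur in the sample labels. They were taken as the 6 libraries of the series because this is its table and the numbers are equal, which is an assumption. They are called A to F below, in table order, and the letters carry neither genotype nor replicate number. Wild type and knockout were therefore not compared, and genotype, animal and library handling cannot be told apart in any difference between libraries. Values are given for each library, without a mean or a test.

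Total counts ran from 744105 in library B to 1123018 in library A, and mitochondrially encoded genes took 49.9% to 56.0% of them. Rank correlations between pairs of libraries over expressed genes ran from 0.854 to 0.897, and 0 pairs were identical. All 10 skeletal muscle fibre markers were expressed in these libraries, with summed levels of 15875 to 21288 CPM (the share of a library's counts, scaled to 1000000). Of the other cell types whose RNA whole diaphragm can hold, 8 of 9 fibroblast, 6 of 8 adipocyte, 8 of 9 macrophage, 8 of 8 endothelial, 6 of 6 mesothelial and 6 of 7 pericyte and smooth muscle markers were expressed. Of 7 cartilage and bone markers only Sox9, a transcription factor, was expressed, at a median of 19.1 CPM, and Acan, Col2a1, Col10a1, Ibsp and Sp7 were at 0. Liver markers (1 of 5 expressed) summed to 0 to 6.78 CPM. In bulk tissue, fewer cells of a type and less RNA per cell cannot be told apart.

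MMPs and ADAMTS proteases are zinc enzymes that cut collagens, proteoglycans and other matrix proteins, and most are made as inactive precursors. TIMPs bind their active sites. Timp3 is held in the matrix and is the TIMP known for blocking ADAMTS proteases, while Timp2 also takes part in the activation of the Mmp2 precursor by Mmp14. Lysyl oxidases oxidise lysines of collagen and elastin, the step that leads to crosslinks and stiffens the matrix of fibrotic muscle.

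A gene was called expressed at 1 CPM or more in at least 3 of the 6 libraries. By that rule 24 of the 51 genes were expressed, 47.1%, against 20.4% of all rows of the table, many of which are pseudogenes and noncoding genes. A further 10 genes had some counts but stayed under the threshold. The other 17 had 0 counts in all 6 libraries, which allows up to 0.492 CPM over the 6 together (3 counts). Of all rows of the table, 68.3% had 0 counts. By family, 4 of 4 inhibitors, 4 of 5 lysyl oxidases, 8 of 19 ADAMTS genes and 8 of 23 MMPs were expressed. Timp1 passed in 3 libraries, and in B it did so on 1 count. It would fail a rule of at least 2 counts in at least 3 libraries, so the order of the first 2 families is not firm. Adamts15 also passed in 3 libraries only with 1 count in B, and would fail that rule too. Under that rule 22 of the 51 genes were expressed. All members together held 5462 counts, 0.0896% of the total, and 57.3% of these were Timp3.

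**Figure D1:**
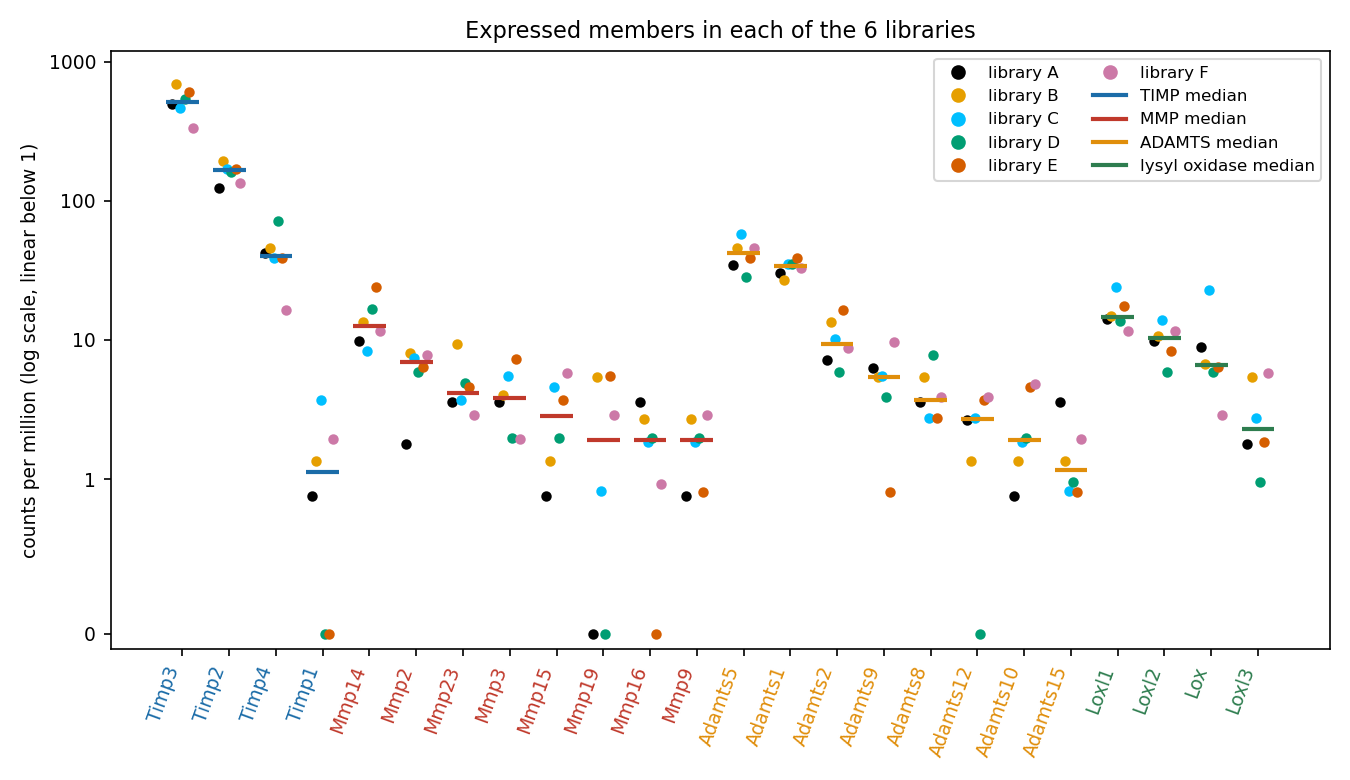
Levels in CPM of the 24 expressed genes in each library (points, one colour per library) with the median of 6 (bars, coloured by family), on a vertical axis that is logarithmic above 1 and linear below. Timp3 and Timp2 lie above every protease and lysyl oxidase in all 6 libraries, and most MMPs lie below 10 CPM.

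The inhibitors dominated. Because each transcript is read only near its end, CPM was not divided by transcript length, and the completeness of annotated transcript ends, which can move a level, was not tested. Summed over the family, TIMP levels were 659 CPM in A, 931 in B, 678 in C, 771 in D, 817 in E and 484 in F, with 79.6% of all member counts. Library F was lowest and B highest.

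Timp3 (ENSMUSG00000020044, GRCm38 chromosome 10, 86300372 to 86349506, forward strand) measured 493 CPM in A, 692 in B, 467 in C, 537 in D, 609 in E and 332 in F. Only 93 genes of the table had a higher median than its 515 CPM. The exact Poisson 95% interval was 298 to 369 CPM in F and 634 to 755 in B, so these libraries differed beyond counting error, by 2.08 times. Such intervals cover counting error only, and the extremes were picked from 6 libraries.

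Timp3 lies within the bounds of Syn3, a synapsin gene on the opposite strand. Syn3 had 0 counts in A, B and E but 39 in C, 44 in D and 64 in F, where it made up 7.13%, 7.42% and 15.7% of the sum of the pair. No source used here gives the strand setting of the counting. Overlap of the exons of the pair was not checked, so whether their reads can be told apart is not known. With Syn3 added, the sums were 493, 692, 503, 580, 609 and 394 CPM in A to F, and the highest was 1.76 times the lowest. Library F stayed lowest and B highest, at 357 to 434 and 634 to 755 CPM. Whether the Syn3 counts are misassigned Timp3 reads was not tested, and the pair was singled out after its values were seen.

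**Figure D2:**
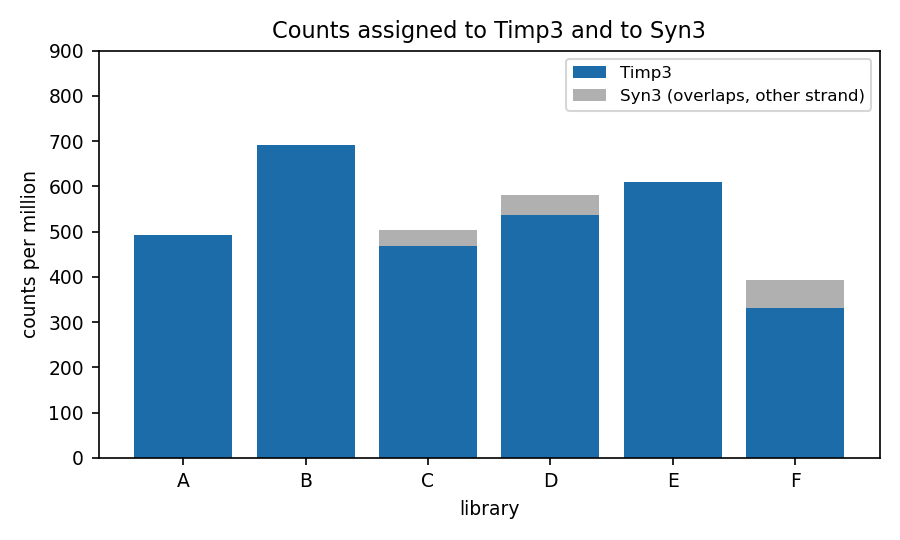
CPM assigned to Timp3 (blue) and to the overlapping Syn3 (grey, stacked) in each library. Syn3 counts appear in C, D and F alone, and F remains the lowest library with them included.

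Timp2 (ENSMUSG00000017466, chromosome 11, 118301069 to 118355740, reverse strand) was the most even of the abundant inhibitors. It measured 123 CPM in A, 192 in B, 168 in C, 162 in D, 169 in E and 134 in F, with a median of 165. The highest library was 1.56 times the lowest, and their intervals, 103 to 145 CPM in A and 162 to 226 in B, did not overlap. Timp3 counts were 2.49 to 4.01 times those of Timp2.

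Timp4 (ENSMUSG00000030317, chromosome 6, 115241892 to 115252205, reverse strand), the TIMP best known from heart, muscle and fat, varied most of the 3 abundant inhibitors. It measured 41.9 CPM in A, 45.7 in B, 38.6 in C, 71.4 in D, 38.6 in E and 16.5 in F. D exceeded F by 4.34 times, with intervals of 56.0 to 89.8 and 9.59 to 26.4 CPM. Like Timp3 it was lowest in F, but it was highest in D. Timp4 also overlaps a synapsin gene, Syn2, which had 0 to 6 counts per library, 6 of them in D and 1 in F. Timp1, an inhibitor known for its induction in inflamed tissue, had 8 counts in all 6 libraries and 0 in D and E.

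The MMP family summed to 27.6 CPM in A, 49.7 in B, 39.6 in C, 37.2 in D, 57.9 in E and 38.7 in F, a median of 39.2 CPM and 4.61% of member counts. Library A was lowest and E highest.

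Mmp14 (ENSMUSG00000000957, chromosome 14, 54431612 to 54445364, forward strand), the membrane-anchored collagenase that activates the Mmp2 precursor, held 33.7% of the family's counts. Its levels were 9.80 CPM in A, 13.4 in B, 8.28 in C, 16.6 in D, 23.9 in E and 11.6 in F. E was highest and C lowest, and their counting intervals overlapped. Mmp2 (ENSMUSG00000031740, chromosome 8, 92827291 to 92853420, forward strand), a gelatinase of fibroblasts, measured 1.78 CPM in A, 8.06 in B, 7.36 in C, 5.87 in D, 6.43 in E and 7.75 in F. Library A was lowest on 2 counts, but its interval, 0.216 to 6.43 CPM, overlapped that of B, 2.96 to 17.6 CPM.

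The remaining 6 expressed MMPs were low: Mmp23, Mmp3, Mmp15, Mmp19, Mmp16 and Mmp9 had medians between 1.90 and 4.14 CPM. By class, 2 of 2 gelatinases and 3 of 6 membrane-type MMPs were expressed, with 1 of 3 stromelysins. The 4 secreted collagenases (Mmp1a, Mmp1b, Mmp8 and Mmp13) had 3 counts among them. Mmp9, a gelatinase stored by neutrophils, had 1 to 3 counts per library, and Mmp8, the neutrophil collagenase, had 2 counts in all. Of 10 neutrophil markers 3 were expressed, S100a8 (29 counts, present in all 6 libraries), Retnlg (7 counts) and S100a9 (6 counts). The other 7 were at 0, Ly6g, Mpo and Elane among them, and the list summed to 3.68 to 11.7 CPM.

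Of the 9 MMPs with 0 counts, 6 were neighbours. On chromosome 9, 10 MMP genes lie between positions 7272514 and 7699585, 427.1 kb with 0 other protein-coding genes. Of these 10, 6 had no count in any library, 3 stayed under the threshold, and Mmp3 alone was expressed, at 4, 3, 6, 2, 8 and 2 counts in A to F. Of the 13 MMP genes elsewhere, 7 were expressed and 3 had no count. This grouping by position was made after the values were seen and was given no test.

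RefSeq windows (GRCm38.p6) were at hand for 33 of the 51 members, and the 250 bases before each start were searched on both strands for TATAAA (the TATA box), TGANTCA (the site of AP-1, a factor known to drive stromelysins and collagenases) and GGGCGG (the GC box). A gene with several windows counted if any of them matched. TGANTCA occurred in 8 of 10 cluster genes, in 0 of 8 other MMPs, 0 of 10 ADAMTS genes and 0 of 4 TIMPs, and in 7.82% of all 27025 genes with a window. Among the 8, Mmp12 counted only through a second window, whose start lies 2993 bases inside the gene. TATAAA occurred in 7 of 10 cluster genes and 1 of 8 other MMPs, against 14.3% of all genes with a window. GGGCGG ran the other way, with 0 of 10 cluster genes, 6 of 8 other MMPs, 7 of 10 ADAMTS genes and 3 of 4 TIMPs, against 35.4% overall. The motifs were chosen after the expression values were seen, a match is not a shown binding site, and genes of a cluster that arose by duplication share sequence. The lines below give the 120 bases before the RefSeq start of the expressed cluster gene (Mmp3), a cluster gene at 0 (Mmp10), the most abundant MMP (Mmp14) and the most abundant inhibitor (Timp3), with matches to the motifs, on either strand, in capitals.
Mmp3, chr9:7445702-7445821, forward strand: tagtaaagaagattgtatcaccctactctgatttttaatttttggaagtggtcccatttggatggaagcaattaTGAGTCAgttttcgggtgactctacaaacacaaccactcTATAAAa
Mmp10, chr9:7502222-7502341, forward strand: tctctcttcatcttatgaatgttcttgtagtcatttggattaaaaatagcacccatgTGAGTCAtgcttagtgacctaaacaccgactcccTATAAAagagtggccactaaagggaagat
Mmp14, chr14:54431478-54431597, forward strand: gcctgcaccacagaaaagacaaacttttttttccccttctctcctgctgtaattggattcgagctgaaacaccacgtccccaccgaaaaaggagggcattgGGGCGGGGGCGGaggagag
Timp3, chr10:86300292-86300411, forward strand: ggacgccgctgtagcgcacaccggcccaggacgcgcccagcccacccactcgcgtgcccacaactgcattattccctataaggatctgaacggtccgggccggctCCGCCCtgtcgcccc
Mmp3 and Mmp10 carry the same pair of motifs in the same order, yet Mmp3 had 25 counts and Mmp10 had 0. Mmp14 and Timp3 carry neither of those motifs in this stretch. The RefSeq start of Timp3 lies 40 bases inside the GENCODE gene given above, so the last 40 bases printed for it, with the marked GC box, are within that gene model. The starts of Timp2 (329 bases inside), Mmp11 (3994) and Adamts20 (61068) lie deeper. All 250 bases searched for these genes are within their gene models, and each counted as a GGGCGG carrier.

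ADAMTS genes outweighed MMPs. The family summed to 90.8 CPM in A, 105 in B, 120 in C, 84.1 in D, 108 in E and 113 in F, with 11.5% of member counts. The ratio of ADAMTS to MMP counts had a median of 2.59 and was above 1 in all 6 libraries.

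A pair of neighbouring proteoglycan-cutting genes on chromosome 16 made up most of the family. Adamts5 (ENSMUSG00000022894, 85856173 to 85901828, reverse strand), an aggrecanase and versicanase, held 40.3% of its counts, and Adamts1 (ENSMUSG00000022893, 85793827 to 85803113, reverse strand), a versicanase, 32.4%. Adamts5 measured 34.7 CPM in A, 45.7 in B, 58.0 in C, 28.4 in D, 38.6 in E and 45.5 in F. C exceeded D by 2.04 times, with intervals of 44.5 to 74.2 and 19.0 to 40.8 CPM. Adamts1 was flatter, at 30.3 CPM in A, 26.9 in B, 35.0 in C, 35.2 in D, 38.6 in E and 32.9 in F, and its extremes overlapped. The spread of Adamts1 over libraries, a coefficient of variation of 12.4%, was below the 17.3% that counting alone would give.

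Among the other ADAMTS genes, Adamts2, which removes the amino-terminal propeptide of fibrillar procollagens, had a median of 9.42 CPM. The other procollagen proteinases, Adamts3 and Adamts14, had 0 and 1 counts in all. Of 7 proteoglycanases 5 were expressed. Adamts4, the other well-known aggrecanase, had 2 counts. Adamts13, the von Willebrand factor protease made mainly in liver, had no count. Of a list of 10 matrix genes, proteoglycans and the glycoprotein gene Comp, 6 were expressed. Dcn (decorin) had a median of 746 CPM and Vcan (versican) 7.22, while Acan (aggrecan) and Comp had 0 counts.

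**Figure D3:**
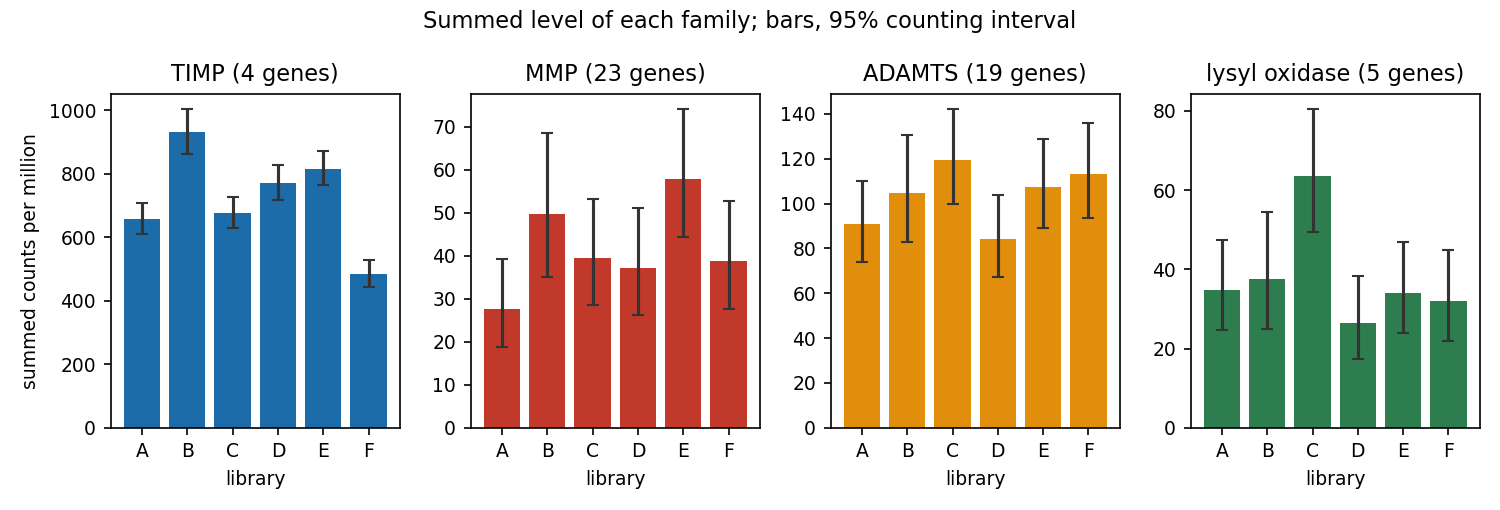
Summed CPM of each family in each library (bars from 0, error bars are exact Poisson 95% intervals of the summed counts, which cover counting error only), with a separate vertical scale per family. TIMP sums run from 484 to 931, and the lysyl oxidase sum of library C, 63.5, stands above the others.

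Lysyl oxidases summed to 34.7 CPM in A, 37.6 in B, 63.5 in C, 26.4 in D, 34.0 in E and 32.0 in F, 4.27% of member counts. Library C stood apart.

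Loxl1 (ENSMUSG00000032334, chromosome 9, 58287738 to 58313186, reverse strand), the member tied to elastic fibres, led with 14.2 CPM in A, 14.8 in B, 23.9 in C, 13.7 in D, 17.5 in E and 11.6 in F. Loxl2 (ENSMUSG00000034205, chromosome 14, 69609068 to 69695834, forward strand), which acts on collagen IV of basement membranes, measured 9.80 CPM in A, 10.8 in B, 13.8 in C, 5.87 in D, 8.27 in E and 11.6 in F. Both were highest in C, and neither varied beyond counting error. Loxl2 overlaps an antisense gene, Gm27177, with 8 to 23 counts per library, so its level is uncertain without the strand setting.

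Lox (ENSMUSG00000024529), the founding member and a crosslinker of fibrillar collagen, is described because of its spread, seen in the values. It had 10 counts in A, 5 in B, 25 in C, 6 in D, 7 in E and 3 in F. Library C, at 23.0 CPM with an interval of 14.9 to 34.0, lay above F, at 2.91 CPM with an interval of 0.599 to 8.49. The fibrillar collagen list (536 CPM) and the fibroblast marker list (1487 CPM) were also highest in C, where the other libraries had 365 to 499.9 and 973 to 1395 CPM. Not all their genes followed: Col3a1 and Ly6a were highest in C, Dcn and Cd34 in B, Col1a2 and Dpt in F, and Col1a1 in C (56.1 CPM) was below its median (60.8 CPM). The lists of cathepsins, of MMP regulators and of hydroxylation and crosslinking genes also peaked in C. The collagen and fibroblast lists share Col1a1 and Col3a1, and the part of these lists in the Lox value was not tested. Loxl3 had 18 counts in all and Loxl4 had no count.

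The balance of inhibitor to protease transcripts favoured the inhibitors in every library. TIMP counts exceeded MMP counts by 23.9 times in A, 18.7 in B, 17.1 in C, 20.7 in D, 14.1 in E and 12.5 in F, a median of 17.9. The exact 95% intervals of the highest, 16.7 to 35.4 in A, and of the lowest, 9.05 to 17.7 in F, overlapped. By these intervals the libraries were not told apart on this ratio, but overlap does not show that they were equal.

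With ADAMTS genes added to the protease side the ratio was 5.56 in A, 6.03 in B, 4.26 in C, 6.35 in D, 4.94 in E and 3.18 in F, a median of 5.25. Here F (2.66 to 3.83) lay below D (5.25 to 7.74). With Syn3 counts added to Timp3, F was 3.59 (3.00 to 4.32) and D 6.71 (5.55 to 8.17), which still did not overlap. Timp3 carried the balance: without it the medians were 5.07 against MMPs alone and 1.36 against MMPs and ADAMTS genes. Transcript ratios say nothing of protein amounts or of enzyme activity, since most of these proteases are made as precursors.

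**Figure D4:**
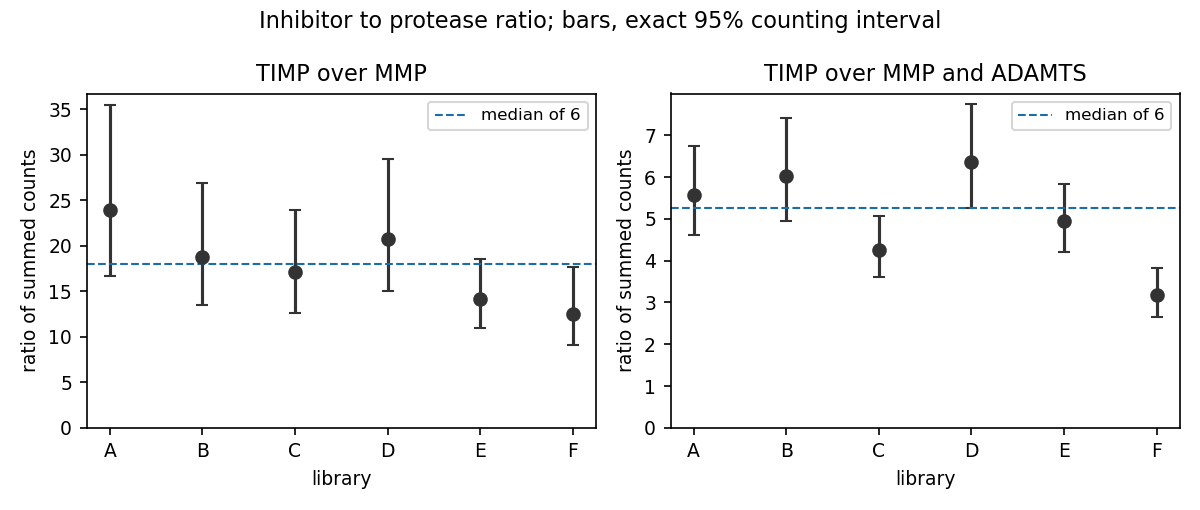
Ratio of summed TIMP counts to summed MMP counts (left) and to summed MMP and ADAMTS counts (right) in each library, with exact 95% counting intervals (bars) and the median of the 6 libraries (dashed line). All libraries lie above 1, and F is lowest on both.

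The pair of Timp2 and Mmp14, which act together on the Mmp2 precursor, stood at a median ratio of 12.0 in favour of Timp2, from 7.08 in E to 20.3 in C. Lysyl oxidase counts were 0.587 (E) to 1.60 (C) times those of MMPs. These pairings were added after the family values were seen.

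Of the 24 expressed members 5, or 20.8%, differed between their highest and lowest library beyond counting error, against 16% of all expressed rows. The members were Timp3, Timp2, Timp4, Adamts5 and Lox. Without library C, Lox and Adamts5 no longer did so and 3 members were left, and without library D, Adamts5 did not. The share is near the background, and it depends on depth: expressed members had a median of 30 total counts, all expressed rows 51. The highest value fell in A for 2 members, B for 4, C for 5, D for 2, E for 5 and F for 6. The lowest fell in A for 6, B for 1, C for 1, D for 6, E for 4 and F for 6, with ties given to the first library of the table. Library F was lowest for Timp3 and Timp4 but above the median of the 6 for the ADAMTS sum. Like Timp3, some list sums were lowest in F and highest in B. They were macrophage markers (72.6 and 177 CPM), endothelial and lymphatic markers (610.2 and 847 CPM) and procollagen processing (38.7 and 79.3 CPM). Their genes were not uniform. Pecam1, Csf1r and Lyz2 had this order, but Cdh5 was highest in F, Kdr lowest in C and Mrc1 lowest in D. In the procollagen processing list, Pcolce was highest in C, Pcolce2 lowest in D and Bmp1 lowest in C. The part of these lists in the Timp3 order was not tested.

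**Figure D5:**
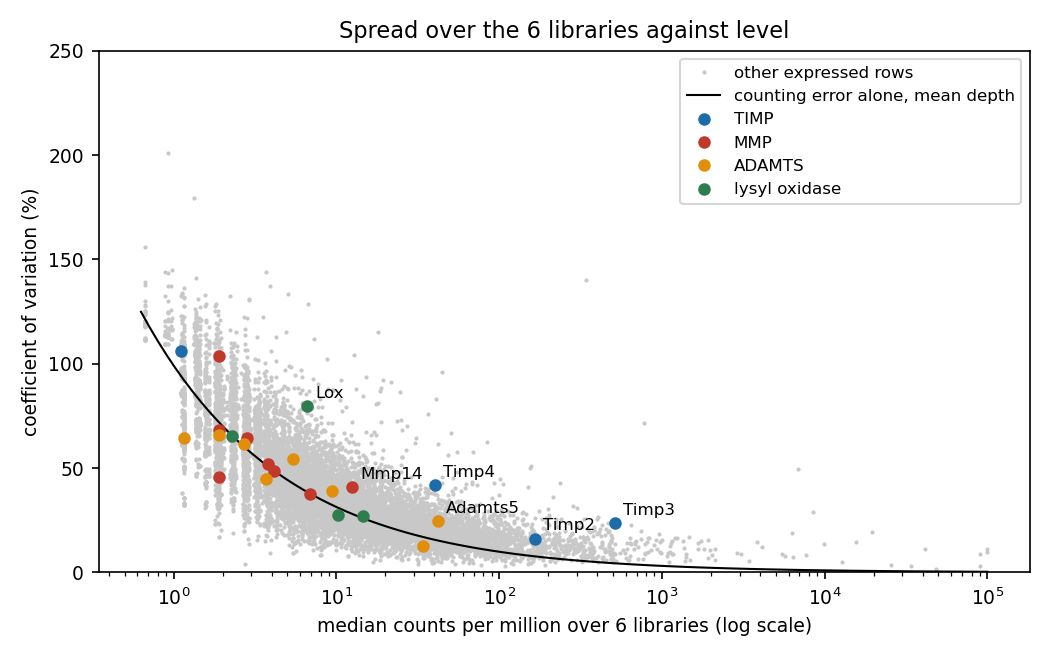
Coefficient of variation over the 6 libraries against median CPM (log scale) for all 11307 expressed rows (grey) and the 24 expressed members (coloured by family), with the spread that counting error alone would give at mean depth (line). Timp3, Timp4 and Lox lie well above the line, while Adamts1 lies below it.

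Genes of related systems were counted in the same way. All 9 genes of the list of cathepsins, related peptidases and their inhibitor were expressed, led by Cst3 (cystatin C, the secreted cathepsin inhibitor, median 197 CPM), Ctsb (160 CPM) and Ctsl (155 CPM). In the plasminogen system 5 of 9 were expressed. Its inhibitor Serpine2 (36.2 CPM) exceeded the activators Plat (16.1 CPM) and Plau (3.89 CPM), and Plg itself, a liver product, had 0 counts. All 7 ADAMTS-like proteins in the table, which lack the protease domain, were expressed, led by Adamtsl5 with 120 counts in all. Of 9 ADAM sheddases 6 were expressed, led by Adam17 (33.6 CPM), a further target of Timp3.

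On the side of collagen building, Bmp1, the procollagen C-proteinase, measured a median of 10.4 CPM and its enhancer Pcolce 23.8 CPM, and 3 of 7 genes of that list were expressed. Of 14 hydroxylation and crosslinking genes 11 were expressed, led by Tgm2 (transglutaminase 2, 39.8 CPM), which like Lox was highest in C. Of 14 fibrillar collagen, elastin and fibrillin genes 9 were expressed. Col3a1 had a median of 146 CPM and Eln of 21.8 CPM, above the median of every lysyl oxidase. In library C, Loxl1 (23.9 CPM) and Lox (23.0 CPM) exceeded Eln (22.1 CPM). Of 8 other inhibitors and regulators of MMPs 6 were expressed, led by Bsg (basigin, an inducer of MMPs, 108 CPM). Reck, a membrane-anchored inhibitor, had 2.72 CPM and A2m had 0 counts.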

How the data were processed

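Polyadenylated RNA of 6 diaphragms was sequenced single-end from the transcript end, per the labels' protocols. STAR 2.7.8a, RSEM 1.3.3, cutadapt 2.3, FastQC 0.11.8 and the build GRCm38 come from the submitters' processing notes. No source used here gives the annotation or the strand setting. The authors deposited expected counts per gene, all whole numbers.

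The column codes match 0 of the sample labels. A stricter reading would leave such columns unused, as they could belong to other samples. All 6 were used here as one set of high-fat-diet diaphragms, and the genotype comparison that was planned with edgeR was not run.

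CPM is the count divided by the library's total, times 1000000. Intervals are exact Poisson (levels) or Clopper-Pearson (ratios) at 95%. At this depth 1 count is worth 0.890 (A) to 1.34 CPM (B), so 1 CPM needs 1 count in B and 2 elsewhere. TMM sizes came from edgeR 4.0.16 (R 4.3.3). Other steps used Python 3.11.15, pandas 2.3.3 and scipy 1.17.1, and the interval script was tested on simulated data. Positions are GENCODE M21.

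Per-library values are given for members with a median of at least 10 CPM and the 2 highest of each family. Members and lists were chosen with earlier results of these data known. The Syn3 check, the extra ratios, the spread comparison, the cluster, the motifs and the account of Lox were chosen after the values were seen.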

Additional observations from a re-analysis of the deposited data

Results flagged for a closer look

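Of 39 sets of 6 values looked at (24 expressed members, 4 family sums and 11 ratios), 4 had 1 library whose gap to its nearest neighbour was above Dixon's 95% critical value for 6 samples, as a share of the whole range. Chance flags about 1 in 20, the sets share counts, and the 6 libraries mix both genotypes. Mmp2 in library A was low, at 1.78 CPM, and Mmp23 in library B was high, at 9.41 CPM on 7 counts. For both genes the counting intervals of the highest and lowest library overlapped. The coefficient of variation was 37.4% for Mmp2, where counting alone would give 40.6%, and 48.6% for Mmp23, where it would give 46.6%. Lox in library C was high, at 23.0 CPM, and with it the lysyl oxidase sum in C, at 63.5 CPM. Lox provides 25 of the 69 lysyl oxidase counts of that library, so these last results are not independent.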

How the results depend on the processing

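Of 135 alternative values, 124 stayed within 1 SD of the libraries (levels, ratios) or 1.5 times (counts of genes), and 11 moved further. Most of the 135 were leave-one-out medians of levels and ratios. Those could not move by 1 SD, because leaving out 1 of 6 values always shifts a median by less. Their staying therefore says nothing of stability. Reversals of direction were not looked for. The number of expressed members was 24, fell to 12 at 5 CPM and to 14 when all 6 libraries had to pass, and lay between 21 and 27 elsewhere. Leaving out the mitochondrially encoded genes from library size raised the median sums to 1550 CPM (TIMP), 80.5 (MMP), 222 (ADAMTS) and 73.4 (lysyl oxidases), by construction. The TIMP to MMP ratio was 24.8 without Mmp14 and 5.07 without Timp3, and the ratio to MMPs and ADAMTS genes 7.29 without Adamts5 and 1.36 without Timp3. Members beyond counting error numbered 5, or 6 with TMM sizes (Mmp14 added) and 4 with 99% intervals. Leaving out 1 library gave 3 to 5, with 3 without library C (Lox and Adamts5 dropped out) and 4 without library D (Adamts5 dropped out). The Syn3, 2-count and mitochondrial beyond-counting alternatives were chosen after seeing the data. Depth limits every MMP except Mmp14 to a few counts per library. No paired analysis was possible because no value column could be tied to a sample.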
